A study of Arabidopsis thaliana with 8 samples.

Results

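Pectin is the galacturonic acid-rich polysaccharide of the primary wall and of the middle lamella that joins neighbouring plant cells. Polygalacturonases hydrolyse its homogalacturonan backbone, and rhamnogalacturonate lyases cut the backbone of rhamnogalacturonan I, the branched pectin domain, by elimination. Pectate lyases cut homogalacturonan by elimination, pectin methylesterases remove its methyl groups, and methylesterase inhibitors restrain them. Described here are 8 pectin-degrading enzyme genes of Arabidopsis thaliana, 3 of the rhamnogalacturonate lyase type (AT4G24430, AT2G22620 and AT4G37950) and 5 of the polygalacturonase type (AT1G70500, AT1G23460, AT1G80170, AT1G60590 and AT1G48100). They were taken by family from the 13286 genes that the platform annotation pairs with a probe set of that 1 gene only, and all 8 had such a probe set. They are not all measured genes listed with these families: AT1G09910, AT1G09890, ADPG1 and AT1G78400 are left out and described further below. Which measured values chose them is not recorded. They were chosen by family with the earlier results of these arrays known, those of F5H-OE among them, so their levels in F5H-OE are given as a description. Where the number of them past the threshold of the fit over all probe sets is printed for a comparison with F5H-OE, nothing is read from it.

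Stem RNA was hybridised to 8 one-colour arrays. Each sample pooled inflorescence stems of 5 Columbia-0 plants that were 1.5 months old. The 3 groups were wild type (WT, 3 arrays), F5H-OE, in which the labels state overexpression of ferulate/coniferaldehyde 5-hydroxylase (F5H, 3 arrays), and fah-1, in which they state loss of F5H function (2 arrays). F5H directs monolignol synthesis towards syringyl lignin. The labels name neither the promoter of the overexpressor nor how many transgenic lines were pooled, and 0 probe sets carried the name of F5H, so the labels were not checked on the targeted transcript.

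Values are log2 intensities unless stated otherwise, and levels of different genes are not compared because each probe set binds with its own strength. The highest of 3 TrpnX control probe sets, which match no plant transcript, stood at 3.65 to 3.93 on the 8 arrays and served as the detection level. Median intensities were 112 to 118. Of 44 marker genes, 6 could be named. The 3 measured secondary wall genes, IRX10, IRX15 and IRX15-L, which act in xylan synthesis, lay between 9.78 and 11.20 on all arrays, and EXPA7, a root hair expansin, lay between 3.90 and 4.27. F5H-OE replicate 1 was unlike its group: its correlation with the arrays of its group averaged 0.987, against 0.991 to 0.997 for the other 7 arrays. The 3′ GAPDH control probe set exceeded the 5′ one by 1.47 there and by 0.51 to 0.85 on the other 7 arrays, a measure that bears on RNA quality. Log2 fold changes of F5H-OE against WT are therefore given with and without that array. Its part in the results was not tested.

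AT4G24430, a rhamnogalacturonate lyase-type gene, had the widest spread of the 8 genes, 3.10 on the log2 scale over the 8 arrays. It stood at 6.26, 5.91 and 6.21 in WT replicates 1, 2 and 3, at 5.90, 8.22 and 8.61 in F5H-OE replicates 1, 2 and 3, and at 5.50 and 5.96 in the fah-1 arrays. F5H-OE replicates 2 and 3 lay far above all other arrays, while F5H-OE replicate 1 lay just below the lowest WT array, so the groups overlapped. In intensity the means were 70.3 ± 8.83 in WT and 249 ± 171 in F5H-OE (SD, n = 3 each) and 53.8 ± 11.8 in fah-1 (SD, n = 2). The log2 fold change of F5H-OE against WT was 1.45 ± 0.61 (moderated SE), and 2.29 ± 0.18 without F5H-OE replicate 1, a fold of 2.73 and 4.88. Without F5H-OE replicate 3 it was 0.93. SWEET11, a sucrose exporter and the 1 measured phloem marker of 5, was low on the same F5H-OE arrays, at 5.88 in replicate 2 and 6.50 in replicate 3, against 9.17 in replicate 1 and 8.29 to 9.84 in WT. In pooled stems, a different share of cells of a type and a different RNA level per cell cannot be told apart.

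AT2G22620, also of the rhamnogalacturonate lyase type, was dim, at 4.83, 4.35 and 4.19 in WT, 4.38, 5.22 and 4.89 in F5H-OE and 4.56 and 4.29 in fah-1. All 8 values were above the TrpnX level. F5H-OE replicates 2 and 3 were the highest of all arrays, and replicate 1 lay inside the WT range. The log2 fold change of F5H-OE against WT was 0.38 ± 0.23, 0.60 ± 0.19 without replicate 1 and 0.18 without replicate 2.

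The third lyase-type gene, AT4G37950, lay between 4.02 and 4.16 on all 8 arrays, close to the TrpnX level, and the groups overlapped. Its log2 fold change was -0.05 ± 0.07 in F5H-OE against WT, and -0.09 ± 0.08 without F5H-OE replicate 1. A second probe set of this gene lay between 3.42 and 3.53 and was not above the TrpnX level on any array, so no fold is given for it.

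**Figure D1:**
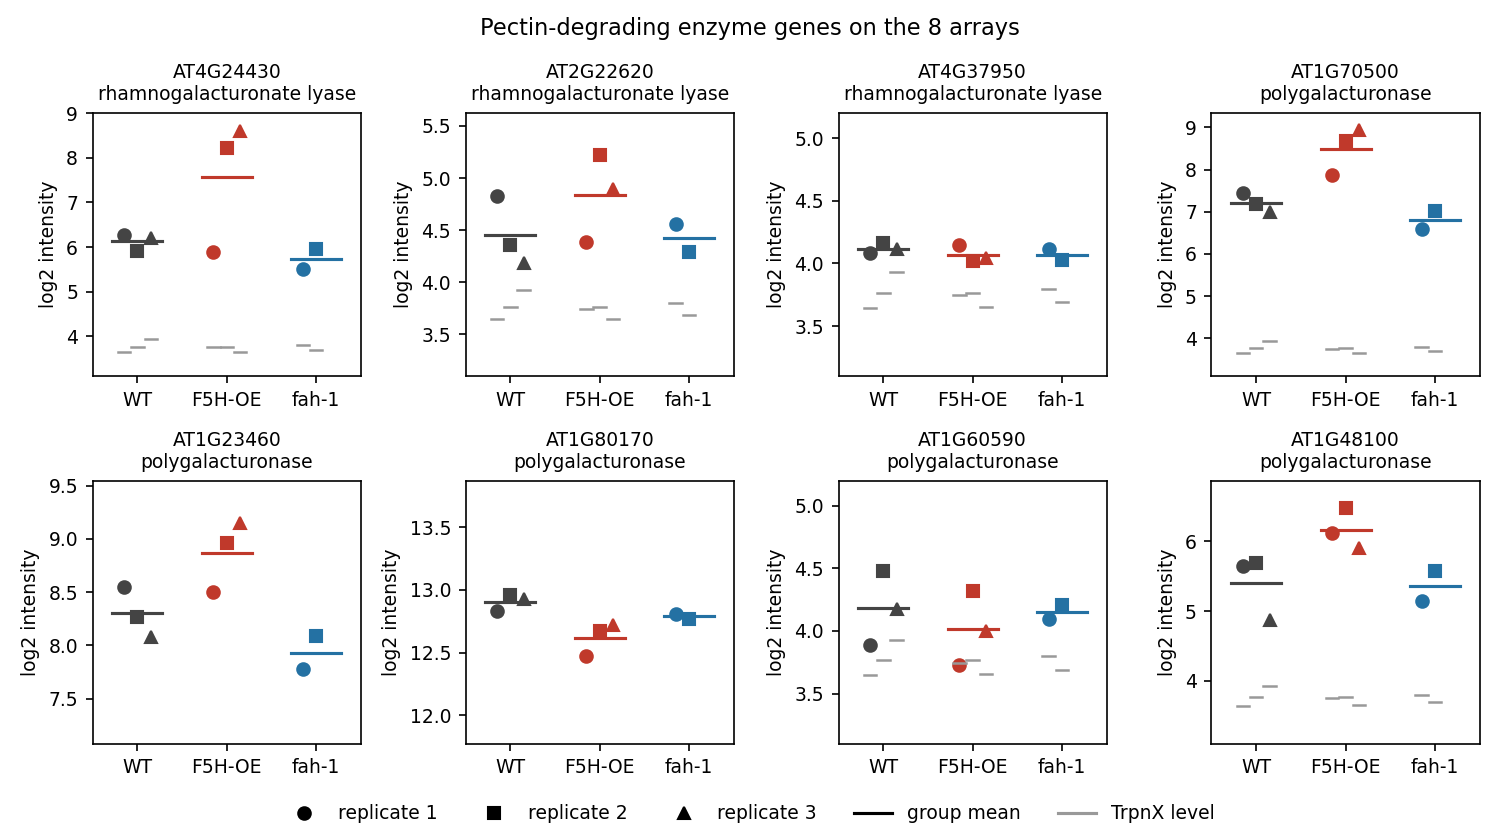
Log2 intensity (y axis) of each of the 8 genes in WT, F5H-OE and fah-1 (x axis), 1 point per array, with the symbol giving the replicate, bars at the group mean and short grey marks at each array's TrpnX control level. AT4G24430 is high in F5H-OE replicates 2 and 3 but not in replicate 1, whereas AT1G70500 is above the WT arrays in all 3. The y axes differ between panels and do not start at 0, and where no grey marks appear the control level lies below the panel.

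Among the polygalacturonase-type genes, AT1G70500 was higher in F5H-OE on every array. It stood at 7.43, 7.19 and 6.99 in WT, 7.88, 8.67 and 8.94 in F5H-OE and 6.58 and 7.03 in fah-1. The lowest F5H-OE array was above the highest WT array, and the fah-1 and WT ranges overlapped. The mean intensity was 149 ± 22.9 in WT and 378 ± 131 in F5H-OE (SD, n = 3 each) and 113 ± 24.5 in fah-1 (SD, n = 2). The log2 fold change against WT was 1.29 ± 0.26, a fold of 2.45, and 1.60 ± 0.17 without F5H-OE replicate 1. Against fah-1 it was 1.69 ± 0.29, and 2.00 ± 0.19 without that replicate.

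AT1G23460 is read by a probe set of the _s_at kind, whose probes may bind more than 1 related transcript, although the annotation gives 1 gene. It stood at 8.55, 8.27 and 8.08 in WT, 8.50, 8.96 and 9.15 in F5H-OE and 7.78 and 8.09 in fah-1. F5H-OE replicates 2 and 3 were the highest arrays, replicate 1 lay just under the highest WT array, and all F5H-OE arrays were above both fah-1 arrays. F5H-OE had a log2 fold change of 0.57 ± 0.19 against WT and 0.94 ± 0.21 against fah-1, and without F5H-OE replicate 1 it was 0.75 ± 0.15 and 1.12 ± 0.17.

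AT1G48100 stood at 5.64, 5.69 and 4.86 in WT, 6.12, 6.47 and 5.90 in F5H-OE and 5.14 and 5.57 in fah-1. The F5H-OE arrays were the 3 highest, and replicate 1 lay between the other two. Against WT the log2 fold change was 0.76 ± 0.24, and 0.79 ± 0.28 without F5H-OE replicate 1. WT replicate 3 was the lowest array of all, and without it the log2 fold change was 0.50.

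AT1G80170 was lower in F5H-OE by a small margin. It gave a strong signal on every array, at 12.83, 12.96 and 12.93 in WT, 12.47, 12.67 and 12.72 in F5H-OE and 12.81 and 12.77 in fah-1. The F5H-OE arrays were the 3 lowest, with a mean intensity of 6314 ± 553 against 7682 ± 358 in WT (SD, n = 3 each). Against WT the log2 fold change was -0.29 ± 0.09 and -0.21 ± 0.08 without F5H-OE replicate 1.

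AT1G60590 was dim, at 3.89, 4.48 and 4.18 in WT, 3.73, 4.32 and 4.00 in F5H-OE and 4.09 and 4.21 in fah-1. F5H-OE replicate 1 was not above the TrpnX level, and the groups overlapped. F5H-OE differed from WT by a log2 fold change of -0.17 ± 0.18, and of -0.02 ± 0.17 without F5H-OE replicate 1.

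Across all 22746 probe sets, limma called 603 in F5H-OE against WT at an adjusted p under 0.05, or 2.65%, of which 1.29% were higher and 1.36% lower. Of the 8 genes 1 passed, AT1G70500, which was higher. Since the genes were picked with the F5H-OE results known, the counts of them in this paragraph are a description and are no evidence, with or without F5H-OE replicate 1 and against either group. The call of AT1G70500 ended in 9 of 15 alternatives, among them when any single array other than F5H-OE replicate 1 was left out, with the replicate block and in a fit of the 2 groups alone. Without F5H-OE replicate 1, 3 of the 8 were past the threshold and higher, AT4G24430, AT1G70500 and AT1G23460, against 7.73% of all probe sets in either direction and 3.89% higher. In F5H-OE against fah-1, AT1G70500 was again the 1 gene past the threshold and higher, against 1.97% of all probe sets in either direction and 1.14% higher. There its call ended in 8 of 15 alternatives, among them without F5H-OE replicate 2 or 3 and without either fah-1 array. Without F5H-OE replicate 1 AT4G24430, AT1G70500 and AT1G23460 were past it in that comparison too, against 6.83% in either direction and 3.59% higher. The 2 comparisons share the F5H-OE arrays. All 3 F5H-OE arrays were above all WT arrays for 2 of the 8 genes and below them for 1, where 9.34% and 11.7% of all probe sets did so.

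**Figure D2:**
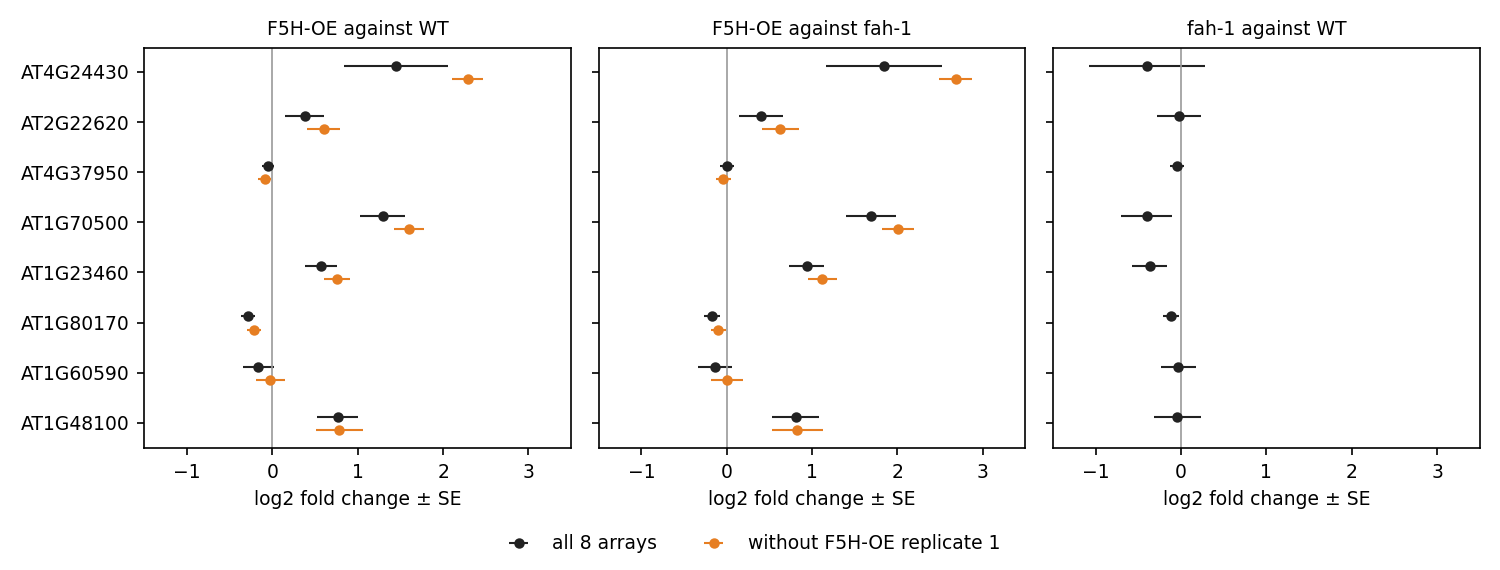
Log2 fold change with its moderated SE (x axis) of the 8 genes in the 3 comparisons, from all 8 arrays (black) and without F5H-OE replicate 1 (orange, not drawn for fah-1 against WT). Leaving that array out moves AT4G24430 most, from 1.45 to 2.29 against WT, and moves AT1G48100 from 0.76 to 0.79.

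In fah-1 F5H function is missing, and the question is which of these genes differ from WT there. The WT arrays are shared with the comparison of F5H-OE. By limma, 0 of the 8 genes passed at an adjusted p under 0.05 and 0 at an unadjusted p under 0.05, against 0.00879% and 5.02% of all probe sets. The log2 fold change was -0.40 for AT4G24430 (95% interval -1.95 to 1.16, limma adjusted p = 0.978). It was -0.40 for AT1G70500 (-1.08 to 0.27, limma adjusted p = 0.970) and -0.37 for AT1G23460 (-0.85 to 0.11, limma adjusted p = 0.965). The F5H-OE arrays enter the shared error. Without F5H-OE replicate 1 the 95% intervals were -0.80 to 0.0093 for AT4G24430, -0.80 to -0.0083 for AT1G70500 and -0.72 to -0.014 for AT1G23460. In that fit 2 of the 8 genes, AT1G70500 and AT1G23460, had an unadjusted p under 0.05, against 7.86% of all probe sets, and 0 passed after adjustment (limma adjusted p = 0.632 and 0.623). The other 5 genes had log2 fold changes of -0.12 to -0.03, with adjusted p of 0.973 to 1.00. For AT1G80170, with -0.12 (-0.34 to 0.10), both fah-1 arrays lay below the WT arrays, as 14.9% of all probe sets did. The fah-1 mean was below the WT mean for 8 of 8 genes and for 56.5% of all probe sets. For AT2G22620, AT1G60590, AT1G48100 and AT4G37950 the difference was only -0.03 to -0.05. The sign changed in some alternatives for AT2G22620, AT1G60590 and AT1G48100. Which values chose the genes is not recorded, so the count is a description. The median over the 8 genes was -0.08, against -0.02 over all probe sets. Of 17 listed secondary wall markers 3 were measured, all of xylan synthesis. Their summed intensity was 3279 to 3427 on the fah-1 arrays, against 4032 to 5379 on those of WT and 4520 to 5485 on those of F5H-OE. The log2 fold change of fah-1 against WT of IRX10 was -0.55, that of IRX15 -0.46 and that of IRX15-L -0.34. None of them passed (limma adjusted p = 0.898, 0.946 and 0.965). For each, both fah-1 arrays lay below all WT arrays, as 14.9% of all probe sets did. IRX10 passed in F5H-OE against fah-1, at 0.64 (limma adjusted p = 0.038) and at 0.64 without F5H-OE replicate 1 (limma adjusted p = 0.030). The part of these markers in the levels of the 8 genes was not tested.

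For AT4G24430, AT2G22620, AT1G70500, AT1G23460 and AT1G48100, 5 of the 8 genes, the mean was lowest in fah-1, then WT, and highest in F5H-OE, an order that 20.7% of all probe sets had. The genes were picked with the F5H-OE results known, so this count is a description and no evidence. In each of these 5 the fah-1 and WT ranges overlapped. The log2 fold change of fah-1 against WT was only -0.03 for AT2G22620 and -0.04 for AT1G48100, and both changed sign with 1 array left out. AT1G80170 had the order F5H-OE, fah-1, WT from low to high, with ranges that did not overlap. The means of AT1G60590 had that order too, but all its ranges overlapped. The means of AT4G37950 differed by at most 0.05.

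The F5H-OE arrays differed among themselves for most of the 8 genes. F5H-OE replicate 1 was below the mean of replicates 2 and 3 for 7 of 8 genes, AT4G37950 being the exception, and for 56.9% of all probe sets. The difference was -2.52 for AT4G24430, -0.93 for AT1G70500, -0.67 for AT2G22620 and -0.55 for AT1G23460, and -0.07 for AT1G48100. The median over the 8 genes was -0.49, against -0.03 over all probe sets. A difference of at least 1 in this direction was found in 1 of the 8 genes and in 0.629% of all probe sets. Replicates 2 and 3 were both above all WT arrays for 5 of 8 genes and for 19.3% of all probe sets. Since the genes were picked with the F5H-OE results known, the counts and medians in this paragraph are a description and are no evidence.

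**Figure D3:**
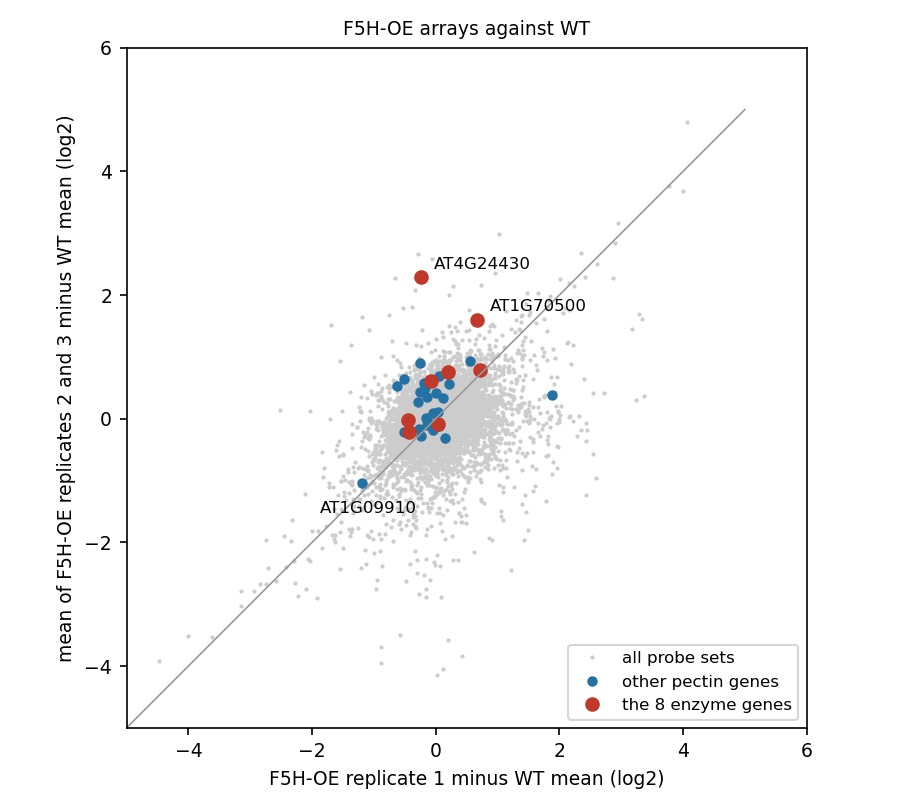
Difference from the WT mean (log2) in F5H-OE replicate 1 (x axis) and in the mean of F5H-OE replicates 2 and 3 (y axis), with 1 point per probe set, the 8 enzyme genes in red and the other pectin genes in blue; the line marks equal values. AT4G24430 lies far above the line (replicate 1 minus the mean of replicates 2 and 3 is -2.52), and AT1G09910, a lyase outside the 8, lies near it (-0.15).

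Other pectin genes were taken from lists of 8 families with 101 genes, of which 26 could be named. None of the 6 listed pectin acetylesterases and 2 polygalacturonase-inhibiting proteins was among them. In F5H-OE against WT limma called 2 of the 26, 1 higher and 1 lower, against 2.65% of all probe sets. It called 6 without F5H-OE replicate 1, 5 higher and 1 lower, against 7.73%. The lists were chosen with earlier results of these arrays known, so these counts are a description. AT1G09910, listed with the rhamnogalacturonate lyases, fell from 8.02, 8.31 and 8.28 in WT to 7.01, 7.21 and 7.11 in F5H-OE, and stood at 8.16 and 8.15 in fah-1. The F5H-OE arrays lay well below all others and close together, replicate 1 included. Against WT the log2 fold change was -1.10 ± 0.10 (limma adjusted p = 0.0012), and against fah-1 it was -1.05 ± 0.11 (limma adjusted p = 0.0036). Leaving out F5H-OE replicate 1 gave -1.05 against WT (limma adjusted p = 0.0015), and the call against fah-1 held (limma adjusted p = 0.0028). The call against WT held in all 15 alternatives, and that against fah-1 ended without either fah-1 array (limma adjusted p = 0.053 and 0.061, with 2.2e-04 to 0.061 over the alternatives). AT1G09890, the other measured gene of this list, lay between 4.78 and 5.16 on all arrays, with a log2 fold change of 0.08 (limma adjusted p = 0.744), and of 0.11 without F5H-OE replicate 1.

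AT4G25260, listed as a pectin methylesterase inhibitor, rose from 7.13, 6.82 and 6.78 in WT to 7.46, 8.02 and 7.65 in F5H-OE, and stood at 7.02 and 7.01 in fah-1. All F5H-OE arrays were above all others. The log2 fold change was 0.80 ± 0.15 against WT (limma adjusted p = 0.034), and the call ended in 8 of 15 alternatives (limma adjusted p 0.0046 to 0.137), including those that left out WT replicate 2 or 3, replicate 2 or 3 of F5H-OE, or 1 of the fah-1 arrays. Against fah-1 it was 0.69 (limma adjusted p = 0.094). With F5H-OE replicate 1 left out it was 0.93 against WT (limma adjusted p = 0.0077) and 0.82 against fah-1 (limma adjusted p = 0.019). The inhibitor AT5G20740 had a log2 fold change of 0.45 (limma adjusted p = 0.221), or 0.56 without that array (limma adjusted p = 0.086), and AT4G25250 stayed within 3.65 to 3.99, near the TrpnX level.

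Over the 11 measured pectate lyases the median log2 fold change from WT to F5H-OE was 0.20, against -0.02 over all probe sets. By limma 0 passed, where 2.65% of all probe sets were called. The 2 with the smallest p were AT59 at -0.21 (limma adjusted p = 0.224), which is dim, and AT1G04680 at -0.32 (limma adjusted p = 0.255). Without F5H-OE replicate 1 they were at -0.17 and -0.22. F5H-OE replicate 1 was below the mean of replicates 2 and 3 in 10 of the 11 and in 56.9% of all probe sets. The median difference was -0.67, against -0.03 over all probe sets. It was -1.16 in AT1G67750 and AT4G24780 and -1.15 in AT4G13710, where 0.629% of all probe sets were at least 1 lower. AT1G67750 stood at 8.16, 8.68 and 8.13 in WT and at 8.06, 9.36 and 9.07 in F5H-OE, so that replicate 1 lay below the WT range and replicates 2 and 3 above it. Without F5H-OE replicate 1, 3 of the 11 passed by limma and were higher against WT, where 3.89% of all probe sets were called higher. They were AT1G67750 at 0.90 (limma adjusted p = 0.019), AT4G13710 at 0.53 (limma adjusted p = 0.025) and AT5G63180 at 0.42 (limma adjusted p = 0.033). The list and these 3 genes were picked with earlier results of these arrays known, so the counts and medians in this paragraph are a description and no evidence.

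**Figure D4:**
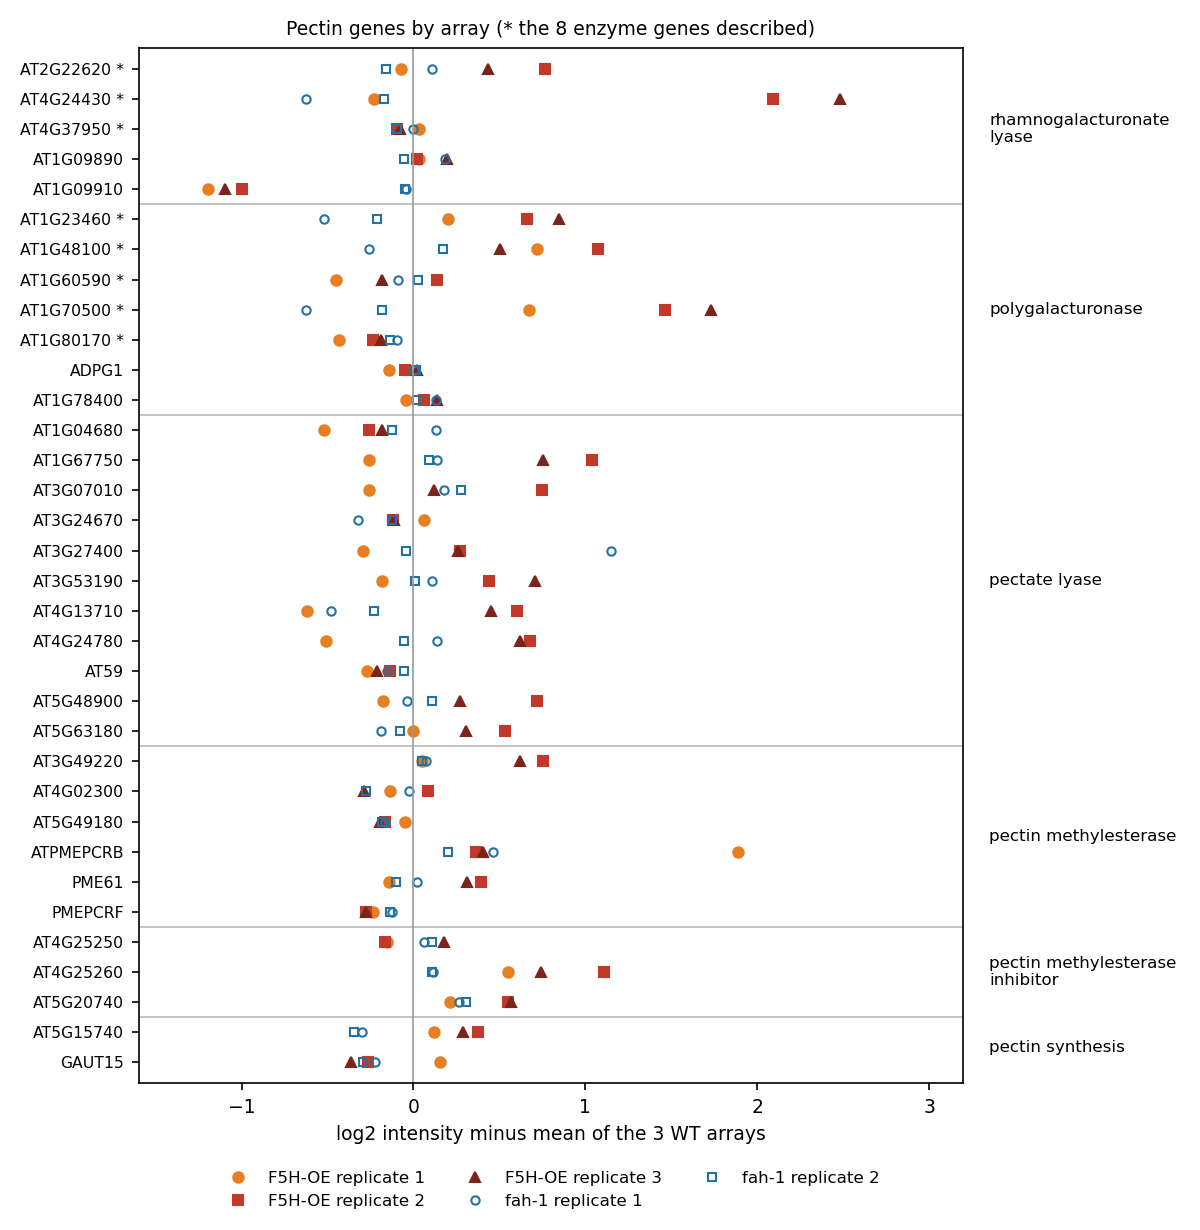
Log2 intensity minus the mean of the 3 WT arrays (x axis) on each F5H-OE array (filled) and fah-1 array (open) for the 8 enzyme genes, marked with an asterisk, and the 26 other measured pectin genes by family (y axis). F5H-OE replicate 1 lies left of replicates 2 and 3 in most pectate lyases, and all 3 F5H-OE arrays lie left of 0 for AT1G09910.

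Of the 6 measured pectin methylesterases, 0 passed by limma in F5H-OE against WT, where 2.65% of all probe sets were called. PMEPCRF had a log2 fold change of -0.26 (limma adjusted p = 0.083), or -0.28 without F5H-OE replicate 1 (limma adjusted p = 0.066), with all F5H-OE arrays below all WT arrays, and AT3G49220 one of 0.47 (limma adjusted p = 0.200). Without F5H-OE replicate 1, AT3G49220 was the 1 of the 6 that passed, with 0.69 (limma adjusted p = 0.0045), against 7.73% of all probe sets. The list was chosen with earlier results of these arrays known, so these counts are a description and no evidence. ATPMEPCRB, which encodes PME41, was at 5.26 in F5H-OE replicate 1 and at 3.23 to 3.83 on the other 7 arrays, so here that replicate was the high one. The 2 measured pectin synthesis genes had log2 fold changes of 0.26 for AT5G15740 and -0.16 for the galacturonosyltransferase gene GAUT15, with 0.33 and -0.31 without F5H-OE replicate 1, and neither passed in either fit. The polygalacturonase gene ADPG1, known for its part in silique and anther dehiscence, was not above the TrpnX level on any array, and AT1G78400, in the same list, was above it on 1 of 8.

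In fah-1 against WT, 0 of the 26 other genes passed by limma and 0 had an unadjusted p under 0.05. The shares of all probe sets were 0.00879% and 5.02%. The median log2 fold change of the 26 was 0.02, against -0.02 over all probe sets. In the fit without F5H-OE replicate 1, 2 of the 26 had an unadjusted p under 0.05 by limma, against 7.86% of all probe sets. They were AT4G13710 at -0.35 (limma adjusted p = 0.518) and ATPMEPCRB at 0.33 (limma adjusted p = 0.548). In the fit of all arrays, those with the smallest p in their lists had log2 fold changes of -0.23 for the pectate lyase gene AT3G24670, -0.13 for PMEPCRF, 0.29 for the inhibitor AT5G20740, -0.32 for AT5G15740, 0.07 for AT1G78400 and 0.06 for AT1G09890. The next in their lists were 0.55 for AT3G27400, -0.18 for AT5G49180, 0.09 for AT4G25250, -0.26 for GAUT15, 0.01 for ADPG1 and -0.05 for AT1G09910. AT3G27400 stood at 6.94 in fah-1 replicate 1 and 5.74 in replicate 2, against 5.48 to 6.22 in WT.

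Of the 8 genes, 5 spanned at least 1 on the log2 scale, as 8.32% of all probe sets did, and for these the 2 most alike of 13285 named genes were sought by the root mean square (RMS) difference of centred log2 values over the 8 arrays. For AT4G24430 they were AT2G14095, with an RMS difference of 0.199, and AT1G14240, with 0.208. AT2G14095 stood at 5.91, 8.62 and 9.09 in F5H-OE replicates 1, 2 and 3, against 6.13 to 6.23 in WT. It too was high only in replicates 2 and 3 of that group, which follows from its choice by likeness on these same arrays. For AT1G70500 they were AT3G14360 (0.244) and AT1G57590 (0.252), for AT1G23460 AT5G40020 (0.0958) and AT4G08160 (0.107), for AT1G48100 AT1G08230 (0.177) and HTB1, a histone H2B gene (0.186), and for AT2G22620 AT1G75090 and AT2G24230 (0.118 each). Among the 8 genes themselves, AT1G70500 was 8th nearest to AT4G24430 of these 13285 (RMS difference 0.483), and AT1G23460 was 25th nearest to AT1G70500 (0.375). Seen from the other gene they were less near: AT4G24430 had rank 98 from AT1G70500, and AT1G70500 had rank 1763 from AT1G23460. From AT2G22620, AT1G70500 had rank 12805 and AT4G24430 rank 13155. The values were centred but not scaled, so a rank depends on the size of the spread as well as on its pattern. The spread was 1.04 for AT2G22620, 2.36 for AT1G70500 and 3.10 for AT4G24430. All these genes were read on the same 8 arrays. The 8 were picked with the F5H-OE results known, so the count of 5 and the likeness are a description.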

How the data were processed

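The authors deposited 1 linear intensity per probe set and array, between 6.62 and 19683. The submitters' processing notes name RMA, without version. Biotin-labelled RNA was used, per the labels' protocols. Neither the chip definition nor the set of arrays normalized together is stated there. No pseudocount was added before log2 was taken. Of 22810 probe sets, 64 controls were left out. Of the 22746 tested, 13513 (59.4%) had 1 gene in the platform annotation, and a gene was represented by its brightest such probe set. Symbols came from a TAIR10.1 gene table. Families of other genes were assigned by locus from hand-written lists and by names in that table.

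One limma model of group means (limma 3.58.1, R 4.3.3) covered all 8 arrays (2-sided, Benjamini-Hochberg over 22746 probe sets, threshold 0.05). It was run on simulated data with independent noise of equal spread on all arrays. The real arrays had weights of 0.31 (F5H-OE replicate 1) to 2.48 (F5H-OE replicate 3), so the simulation does not show how the model performs on them. SEs are moderated, 95% intervals are unadjusted, and SDs are between arrays. The labels call the samples biological replicates. Genes named were the 8, called list genes and the 2 smallest p per list in each comparison with WT. AT1G67750, AT4G13710, AT5G63180, AT4G24780 and ATPMEPCRB fall outside this rule and were picked with their values known. For likeness, the 2 nearest genes were named. No pair of columns was identical. The few arrays limit the precision. The members and lists were chosen with earlier results of these data known. Alternatives were recentring, quantile normalization, a filter on dim probe sets, 2-group fits, array weights, a trended spread, leaving out each array, and a block for the replicate number.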

Additional observations from a re-analysis of the deposited data

How the results depend on the processing

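Of the 8 enzyme genes, 1 passed in F5H-OE against WT and 1 in F5H-OE against fah-1. In both, 3 passed with array weights, 0 in a fit of the 2 groups alone, and 0 to 3 with each array left out in turn. In fah-1 against WT 0 passed in any of the 15 alternatives. Of the 26 other pectin genes, 2 passed in F5H-OE against WT, with 4 under array weights, 1 in the 2-group fit, 1 with the replicate block and 1 to 6 with an array left out. In F5H-OE against fah-1, 1 passed, with 6 under array weights and 0 to 6 with an array left out. Among fits with 1 array left out, the highest counts came without F5H-OE replicate 1. Over all probe sets 603 and 449 were called, with 379 and 274 in 2-group fits, 2526 and 2878 with array weights, 401 and 229 with the replicate block, and 237 to 1758 and 69 to 1554 with an array left out.

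For 4 genes the log2 fold change of fah-1 against WT, never past the threshold, changed sign. With 1 array left out it ranged from -0.31 to 0.17 for AT1G48100, from -0.18 to 0.12 for AT1G60590, from -0.16 to 0.16 for AT2G22620 and from -0.14 to 0.0072 for AT1G09910. With recentred arrays it was 0.0020 for AT1G60590 and 0.0050 for AT2G22620, which stood at 0.038 with array weights. The cause was not tested. Correlations of deviations from group means were -0.06 to 0.33 for same-numbered arrays and -0.25 to 0.09 for the others. The highest were 0.33 for replicate 2 and 0.17 for replicate 1 of WT and F5H-OE. Because not all same-numbered arrays deviated together, the numbers were not treated as pairs. Whether some replicates shared handling was not tested. With the block AT1G48100 was the 1 enzyme gene past the threshold, in both F5H-OE comparisons. Fits that left 1 fah-1 array assumed that it varied like the other groups. Values near the TrpnX level limit what AT4G37950, AT1G60590 and AT2G22620 can show.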
